A study of Bos taurus with 22 samples.

Results

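Immediate early genes are switched on within minutes when a cell meets a growth factor, injury or stress, before any new protein has to be made, and their transcripts are short-lived. Most encode transcription factors that then set the slower response: FOS and JUN proteins pair to form the AP-1 factor, EGR1 is a zinc-finger factor and NR4A1 an orphan nuclear receptor. In adipose tissue they answer hormones and adrenergic signals, and they also answer cutting and handling of the tissue, so their level in a biopsy can reflect the minutes around sampling. The 10 genes described here are FOS, FOSB, JUN, JUNB, EGR1, ATF3, IER2, IER3, MYC and NR4A1, chosen by name as every probe set whose single annotated symbol is one of them. They were measured by 19 of the 24016 bovine probe sets on an Affymetrix array.

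The postpartum group held 11 subcutaneous adipose biopsies taken 14 days after calving, and the prepartum group held 11 taken 30 days before calving. They came from the same 11 Holstein heifers, aged 24 to 28 months at this first calving and reared alike on 1 farm. No diet was tested as a treatment, but the labels describe separate rations before and after calving, so ration and time cannot be told apart. The biopsies came from the dorsal fat depot named in the labels and went directly into Trizol, and RNA was extracted within 2 hours. The time from incision to Trizol is not given for single biopsies in the sources used here, and each time point was 1 biopsy a cow, so biopsy handling and the cow's state on the day cannot be told apart. Values are MAS5 signals on a linear scale, scaled by the authors so that every array has nearly the same trimmed mean, and differences are log2(signal + 7.78). In bulk tissue, fewer cells of a type and less RNA per cell cannot be told apart.

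Adipocyte markers were present on every array: the summed signal of 9 genes, among them the fatty acid binding protein FABP4 and adiponectin ADIPOQ, ran from 12061 to 23662 postpartum and from 16036 to 23691 prepartum. Some arrays also had high markers of other tissue. The summed signal of 8 of 12 listed skeletal muscle markers had a median of 1986 postpartum and 1790 prepartum. It reached 51774 in the postpartum array of cow 384 and 34693 in the prepartum array labelled cow 387, whose pairing is in doubt (the correlation of its arrays after removal of group means was -0.10, against 0.18 to 0.43 in the other cows). Only the prepartum array of cow 387 had high muscle markers, and their part in its low correlation was not tested. The muscle list was split. MYH7 and CKM were bright at both times (mean log2 9.84 and 9.47 postpartum, 9.59 and 9.47 prepartum). Their changes had SDs of only 0.50 and 0.44, against 3.05 to 3.83 in the other kept muscle markers. The epidermal keratin KRT10 had a change of -1.77 (limma adjusted p = 0.102), with 10 of 11 cows lower. KRT5, the other kept gene of 7 epidermal markers, had -0.02 (limma adjusted p = 0.959), with 6 of 11 cows lower, so the epidermal list did not move together. The summed signal of KRT5 and KRT10 reached 6188 in the prepartum array of cow 341, against a prepartum median of 271. Postpartum it was 288 or lower on every array. The median of the 8 markers' log2 differences from their own medians over the 22 arrays was highest in postpartum cow 384 (7.97), prepartum cow 387 (7.43), postpartum cow 386 (4.12) and prepartum cow 384 (2.62), and at most 0.89 on the other arrays. Some values are also given without cows 384 and 387, and without cows 384, 386 and 387. A code in the sample titles, left unexplained by the labels, puts 5 cows in array set 1 and 6 in array set 2.

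One of the 10 genes passed the test between late pregnancy and early lactation. IER3, which encodes a stress-induced regulator of cell survival, fell in 10 of 11 cows. FOS and EGR1 did not pass. On the brighter probe set of each, the spread left after cow and time were taken out was as large as or larger than that of 98.6% of probe sets. The test was limma's moderated test with cow as a block and Benjamini-Hochberg adjustment over all 14410 probe sets kept above a minimum level, and 3.43% of those were called (494). By direction, 1.98% were called lower (286) and 1.44% higher (208). Of the 19 member probe sets, 17 were kept and 1 was called. Over 1 probe set a gene, 1 of 10 member genes was called, against 3.71% of 6984 genes (2.16% lower, 1.55% higher), and 6 of the 10 had a negative change (median -0.03, against 0.01 over all kept genes). The median size of the change was 0.18 log2 units in the 10 genes, against 0.12 over all kept genes.

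**Figure D1:**
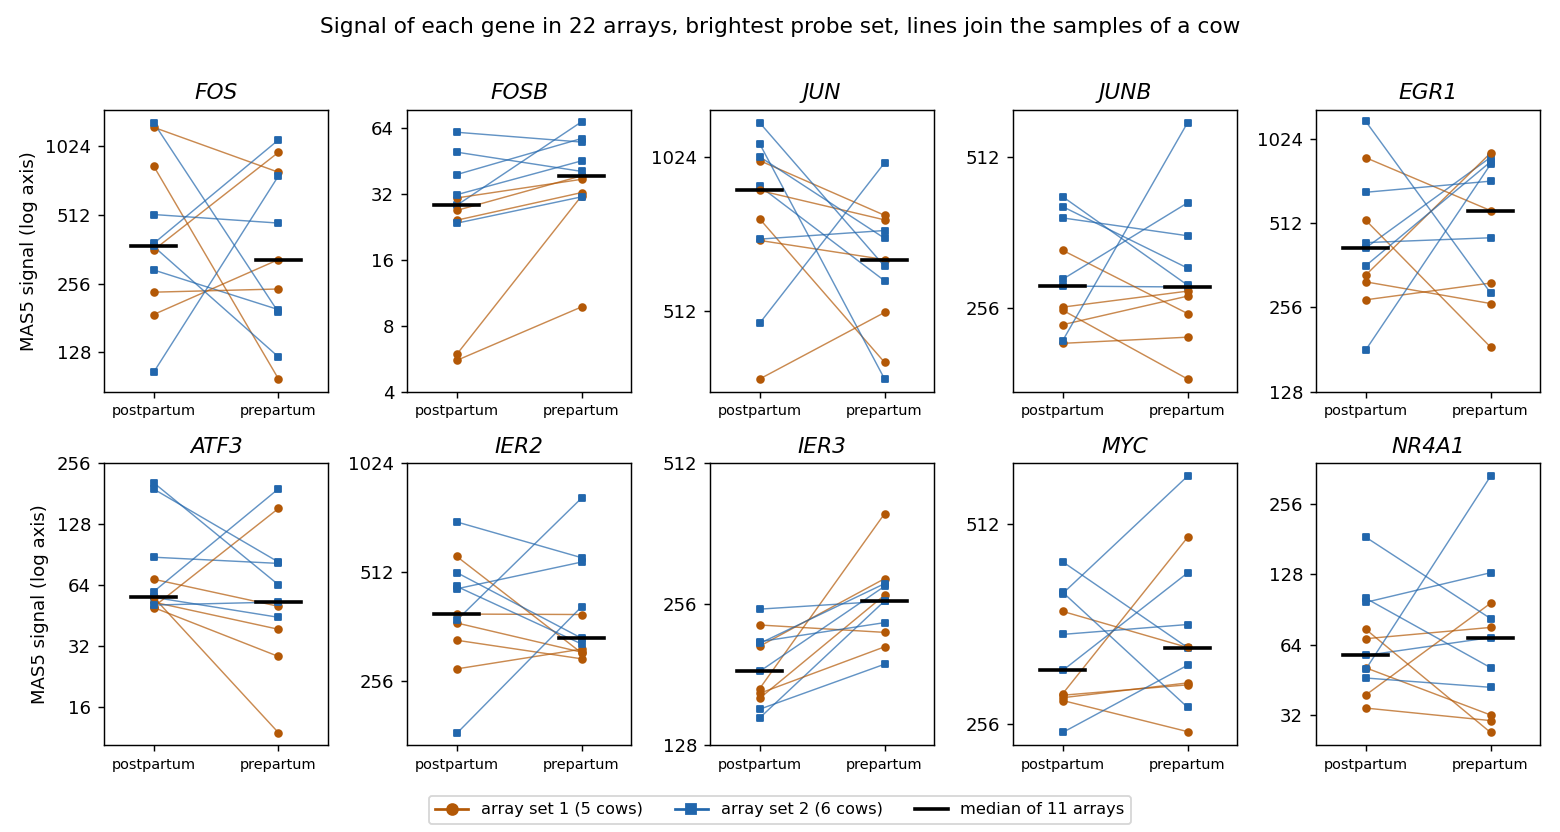
Signal of the brightest probe set of each gene (log axis, MAS5 signal) in 11 postpartum and 11 prepartum arrays. Lines join the samples of a cow, colours give the array set and black bars the group medians. IER3 lines slope the same way in 10 of 11 cows, while FOS and EGR1 lines cross in both directions.

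FOS is the partner of JUN in AP-1 and the best known marker of recent stimulation. Its brighter probe set had a lowest, median and highest signal of 104, 373 and 1302 postpartum, against 97.5, 326 and 1094 prepartum. The groups overlapped over nearly their whole range, and within each group the highest array was 12.5 times the lowest postpartum and 11.2 times prepartum. The mean log2 change was 0.19 (SE 0.45, 95% interval -0.77 to 1.15, limma adjusted p = 0.854), higher in 6 and lower in 5 cows. The cows moved in opposite directions. FOS was higher postpartum by 3.01 log2 units in cow 360, 2.72 in cow 346 and 1.55 in cow 382, and lower by a change of -2.78 in cow 386, -1.49 in cow 384 and -1.41 in cow 347. High postpartum arrays were those of cows 346 (1302), 331 (1243) and 360 (840). High prepartum arrays were those of cows 384 (1094), 347 (965), 331 (789) and 386 (760), and cow 331 was the one cow named on both sides. Cow 384 had raised muscle markers in both arrays, and without cows 384 and 387 the spread of FOS left after cow and time was 1.34 log2 units, against 1.26 with them. Cow 386, which had the largest fall, had raised muscle markers in its postpartum array. Without cows 384, 386 and 387 the change of FOS was 0.78 (SE 0.42, limma adjusted p = 0.287) and the spread left was 1.11 log2 units.

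The second FOS probe set gave the same picture at lower signals, 37.4, 107 and 309 postpartum and 28.0, 75.3 and 298 prepartum, with a change of 0.24 (SE 0.39, limma adjusted p = 0.782). The changes of the 2 FOS probe sets correlated at Pearson r = 0.973 over 11 cows (Spearman rho = 0.973, permutation p = 1e-05 and 2e-05, where 1e-05 is the smallest that 100000 permutations can give, adjusted over 7 probe set comparisons 7e-05 and 0.00014, r = 0.96 without the 2 most distant cows). The large differences of FOS between arrays were thus read alike by both probe sets. They share the hybridised RNA of each array, and whether their probes overlap in sequence was not checked.

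FOSB, a close relative of FOS that also pairs with JUN proteins, was dim. Its brighter probe set had 5.57, 28.5 and 61.4 postpartum, against 9.77, 38.8 and 68.6 prepartum. It was lower in 9 of 11 cows (change -0.44, SE 0.15), with an exact sign-flip p = 0.0078 on its own values, but it did not pass over all probe sets (limma adjusted p = 0.116). Without cows 384 and 387 this change was -0.51 (limma adjusted p = 0.0706), and without cow 386 as well -0.52 (limma adjusted p = 0.0978). The other FOSB probe set had a change of 0.06 (SE 0.29, limma adjusted p = 0.943) with 7 cows higher, so the direction of FOSB depended on the probe set.

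JUN had the same direction on each of its kept probe sets. Its brightest probe set had 377, 880 and 1194 postpartum, against 377, 645 and 997 prepartum, overlapping groups with a higher postpartum median. The change was 0.33 (SE 0.18, limma adjusted p = 0.337), positive in 8 of 11 cows. Without cows 384 and 387 it was 0.415 (limma adjusted p = 0.121), and without cow 386 as well 0.40 (limma adjusted p = 0.175). All 4 kept JUN probe sets had a positive change, from 0.31 to 0.42, and none passed. The closest was the dimmest of the 4, positive in 10 of 11 cows (change 0.41, SE 0.11, exact sign-flip p = 0.0049, limma adjusted p = 0.0563). Across cows, however, its changes and those of the brightest JUN probe set had r = 0.143 (rho = 0.155, permutation p = 0.677 and 0.653, adjusted 0.677 and 0.653, r = 0.165 without the 2 most distant cows). One more JUN probe set lay below the minimum level, with signals of 0.707 to 17.9 postpartum and 1.20 to 14.5 prepartum.

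JUNB, a JUN relative that can restrain AP-1 activity, had 217, 282 and 426 postpartum, against 184, 281 and 598 prepartum. Its medians were nearly equal and its highest array was the prepartum one of cow 386. The change was -0.03 (SE 0.15, 95% interval -0.35 to 0.30, limma adjusted p = 0.947), and 0.19 without cows 384, 386 and 387 (SE 0.10, limma adjusted p = 0.277). ATF3, a stress-induced factor of the same leucine zipper class, had 49.5, 55.6 and 205 postpartum, against 11.9, 52.7 and 192 prepartum, with a change of 0.28 (SE 0.27, limma adjusted p = 0.612). That value depended on single cows: it was 0.05 without cows 384 and 387 (limma adjusted p = 0.941), 0.14 without cow 360, 0.15 without cow 384, 0.46 without cow 347 and 0.47 without cow 386. Postpartum the arrays of cows 384 (205) and 387 (191) stood above the others, which lay at 87.8 or lower. The summed muscle marker signal was highest in the same postpartum array of cow 384, and the part of muscle in its ATF3 level was not tested.

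EGR1, which binds GC-rich promoter sites and is induced along with FOS, had 180, 417 and 1180 postpartum on its brighter probe set, against 185, 567 and 909 prepartum. The change was -0.17 (SE 0.32, 95% interval -0.85 to 0.51, limma adjusted p = 0.808), with 4 cows higher and 7 lower. As for FOS, cow 346 had the highest postpartum level, cow 386 the lowest postpartum and cow 360 the lowest prepartum. Without cows 384, 386 and 387 the change was 0.20 (limma adjusted p = 0.752). The dimmer EGR1 probe set (highest signal 36.4 postpartum and 43.6 prepartum) had a change of -0.39 (SE 0.17, limma adjusted p = 0.21). The changes of the 2 EGR1 probe sets had r = 0.487 over 11 cows (rho = 0.473, permutation p = 0.129 and 0.146, adjusted 0.182 and 0.204, r = 0.532 without the 2 most distant cows). In cow 346 these changes were 2.00 and -0.33, so the EGR1 probe sets were not read alike as those of FOS were.

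NR4A1, also called Nur77, had 34.3, 57.5 and 184 postpartum, against 27.0, 68.6 and 335 prepartum. The postpartum array of cow 384, with the high muscle markers, was again the highest (184). The prepartum array of cow 386 (335) was far above the next prepartum array (130, cow 387). The change was -0.04 (SE 0.28, 95% interval -0.64 to 0.56, limma adjusted p = 0.956), and 0.18 without cows 384, 386 and 387 (limma adjusted p = 0.672). MYC, a transcription factor of cell growth that pairs with MAX, had 248, 308 and 449 postpartum, against 249, 333 and 604 prepartum, a change of -0.09 (SE 0.12, 95% interval -0.34 to 0.16, limma adjusted p = 0.714). IER2, a nuclear early response protein, had 184, 393 and 706 postpartum on its brightest probe set, against 295, 337 and 821 prepartum, and a change of 0.01 (SE 0.17, 95% interval -0.36 to 0.37, limma adjusted p = 0.989). Without cows 384, 386 and 387 the IER2 change was 0.22 (SE 0.11, limma adjusted p = 0.274). A second IER2 probe set had a change of 0.14 (SE 0.13, limma adjusted p = 0.595), and another lay below the minimum level on every array, at 5.80 or lower postpartum and 5.78 or lower prepartum. The intervals were narrower for JUNB, MYC and IER2 than for NR4A1 and EGR1, and none of the 5 shows that the level was equal at both times.

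IER3 had 146, 184 and 250 postpartum, against 191, 260 and 400 prepartum. The groups overlapped, but all 11 postpartum arrays lay below the prepartum median. It fell 1.36-fold (log2 change -0.45, SE 0.11, 95% interval -0.67 to -0.22, limma adjusted p = 0.0343, exact sign-flip p = 0.002 on its own values). The single cow with a higher postpartum level was cow 331, by 0.05 log2 units, and cow 338 had the largest fall, with a change of -1.20. The call was narrow: leaving out 1 cow at a time, it was lost in 8 of 11 cases (limma adjusted p from 0.0183 to 0.0825, change from -0.50 to -0.37). These were the omissions of cows 330, 338, 341, 346, 347, 360, 382 and 386, with adjusted p of 0.0774, 0.0574, 0.0638, 0.062, 0.066, 0.0825, 0.0774 and 0.0591. Without cows 384 and 387 it passed (change -0.53, limma adjusted p = 0.0115), and likewise without cows 384, 386 and 387 (-0.54, limma adjusted p = 0.0197). It did not pass without cows 330, 331, 341 and 382, left out for their KRT10 (-0.47, adjusted p = 0.300), by an ordinary paired test without limma's shared variance (adjusted p = 0.0686), or in array set 2 (-0.38, adjusted p = 0.367) or array set 1 alone (-0.53, adjusted p = 0.168).

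The spread between arrays was split into a part for time, a part for cow and a remainder, which holds how differently the cows moved between their samples. Time took 0.76% of the sum of squares of FOS and 1.29% of EGR1, 0.12% of JUNB, 0.07% of NR4A1 and 0.01% of IER2. It took 44.2% of IER3, 12.4% of JUN and 10.8% of FOSB, and these 3 were the member genes above the median of all kept genes (4.54%). These shares are those of the brightest probe sets. On the other probe sets time took 0.13% of FOSB and 21.4% of EGR1, so for these genes the side of the median depended on the probe set. For FOS and EGR1 the remainder (59.6% and 62.1%) was larger than the part for cow (39.7% and 36.6%). This was so in 3 of the 10 genes, the other being JUN (49.9% and 37.7%). The median part for cow was 52.8% in the 10 genes and 54.1% over all kept genes. The median remainder was 43.7% and 36.0%. Cow takes 47.6% of the degrees of freedom, so its part was below that share in FOS and EGR1. The postpartum and prepartum FOS levels of a cow had r = -0.201 over 11 cows (rho = -0.164, permutation p = 0.549 and 0.632, adjusted over 10 genes 0.895 and 0.745, r = -0.068 without the 2 most distant cows).

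**Figure D2:**
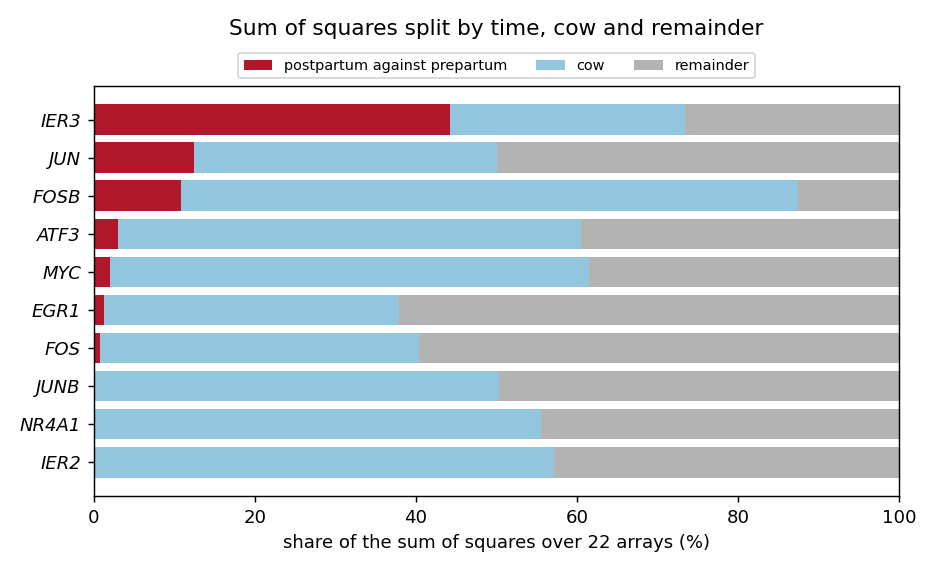
Share of the sum of squares over 22 arrays (percent) that goes with postpartum against prepartum, with cow and with the remainder, for the brightest probe set of each gene. IER3 has the largest share for time (44.2%), and FOS and EGR1 have mostly remainder.

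On its brighter probe set FOSB was the exception among the members. Cow took 76.6% of its sum of squares, and its postpartum and prepartum levels had r = 0.746 (rho = 0.791, permutation p = 0.00733 and 0.00538, adjusted 0.0733 and 0.0538, r = 0.726 without the 2 most distant cows, and 0.263 in the 6 cows of array set 2, while set 1 had too few). It did not pass the adjustment. On the other FOSB probe set cow took 52.9% and the remainder 47.0%, so this trait depended on the probe set. Among the other members the highest r was that of MYC (0.224, rho = 0.327, permutation p = 0.509 and 0.328, adjusted 0.895 and 0.745, r = 0.173 without the 2 most distant cows).

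The remainder SD, the spread left after cow and time, placed 4 of the 10 genes above the 95th percentile of all kept probe sets. It was 1.26 log2 units for FOS (99.5th percentile), 0.88 for EGR1 (98.6th), 0.77 for NR4A1 (97.9th) and 0.75 for ATF3 (97.6th). These are values of the brightest probe sets. The second FOS probe set had 1.095 (99.35th), the other FOSB probe set 0.79 (98.0th) and the dimmer EGR1 probe set 0.41 (82.1st). The median was 0.47 over the 10 genes and 0.26 over all kept genes. Dim probe sets are noisier, so each SD was also divided by the SD that limma's trend gives at that level. The ratio was 5.53 for FOS, 3.91 for EGR1, 2.79 for NR4A1 and 2.69 for ATF3. JUN (2.20), IER2 (2.01) and JUNB (1.72) were intermediate, and MYC (1.28), IER3 (1.09) and FOSB (1.03) lay near the trend. The median ratio was 2.10 in the 10 genes and 1.02 over all kept genes. Some cell type lists had a higher median: macrophages 2.11, smooth muscle and pericytes 2.385, adipocytes 2.387, neutrophils 4.59 and skeletal muscle 7.60. Endothelium had 1.25, fibroblasts and progenitors 1.15, other early response genes 1.504, and the relatives of AP-1, EGR and NR4A 1.497. A large spread was thus not particular to the members. The SD of FOS levels was 1.10 postpartum and 1.20 prepartum, and that of EGR1 0.76 and 0.81. NR4A1 had 0.64 and 0.97, where the prepartum array of cow 386 stood out. Without cows 384, 386 and 387 the spread left was 0.82 for EGR1, 0.62 for ATF3 and 0.52 for NR4A1, again above the 95th percentile as for FOS, while that of JUNB was 0.21, the median over all kept genes, against 0.40 with them. The spread left of IER2 was 0.26 (60.3rd percentile) after the same omission, against 0.46 with all cows.

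**Figure D3:**
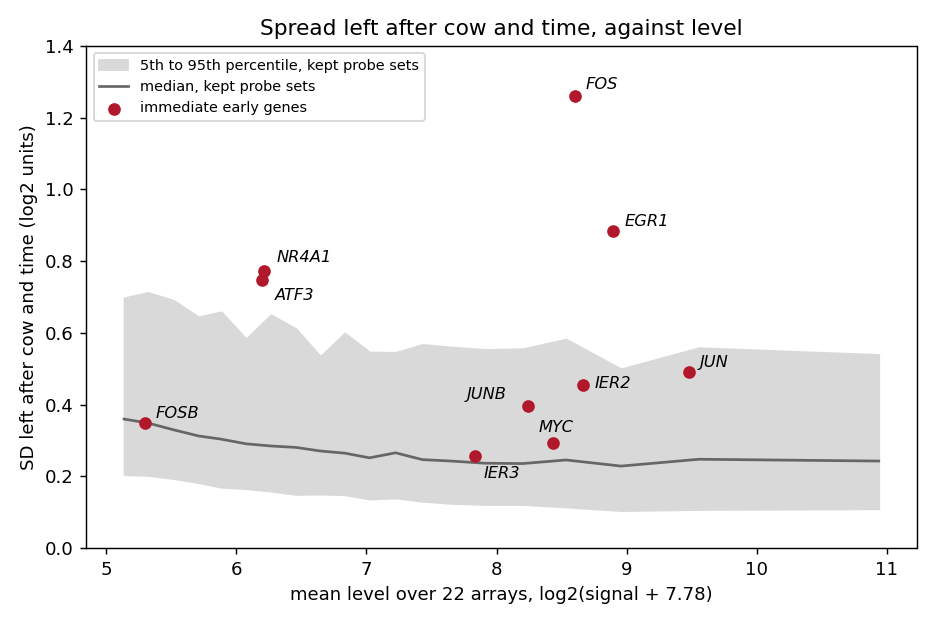
Spread left after cow and time (SD, log2 units) against the mean level over 22 arrays, for the brightest probe set of the 10 genes (points) and all kept probe sets (grey band from the 5th to the 95th percentile, line at the median). FOS, EGR1, NR4A1 and ATF3 lie above the band, and IER3, MYC and FOSB lie near the line. The other FOSB probe set, not drawn as a point, had 0.79.

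Of the 45 gene pairs, 39 had a positive correlation of their changes over 11 cows (median r = 0.41). The share of positive pairs among all kept genes was not computed, and pairs that share a gene are not independent. Pairs were also compared by prepartum and by postpartum level, 135 relations in all. In the changes, 5 pairs passed the adjustment with Pearson's r and 2 of them also with Spearman's rho. FOS and JUNB, which encode AP-1 partners, had r = 0.861 and rho = 0.936 (permutation p = 0.00018 and 7e-05, adjusted 0.0081 and 0.0054, r = 0.854 without the 2 most distant cows, 0.853 without cows 384 and 387, 0.826 without cows 384, 386 and 387, and 0.93 in array set 2). FOS and EGR1 had r = 0.878 and rho = 0.845 (permutation p = 0.00056 and 0.00179, adjusted 0.0108 and 0.0345, r = 0.779 without the 2 most distant cows, 0.868 without cows 384 and 387, 0.792 without cows 384, 386 and 387, and 0.902 in array set 2). Array set 1, with 5 cows, had too few for a value. The cows with the largest FOS rise, 360 and 346, had EGR1 changes of 1.47 and 2.00, and cow 386, with the largest FOS fall, had -2.15.

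**Figure D4:**
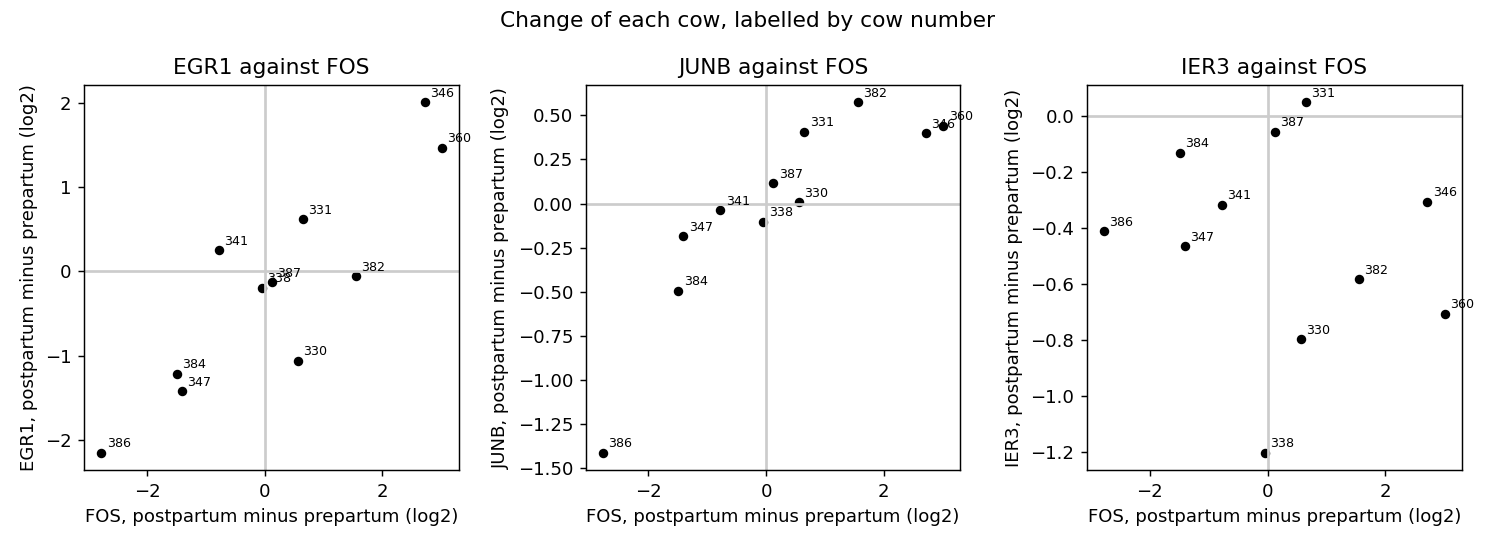
Postpartum minus prepartum change (log2 units) of EGR1, JUNB and IER3 against that of FOS, 1 point a cow, labelled by cow number. EGR1 and JUNB follow FOS across cows (r = 0.878 and 0.861), and IER3 does not (r = -0.161).

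The pairs JUNB with IER2 (r = 0.858, rho = 0.809, permutation p = 0.00045 and 0.00356, adjusted 0.0106 and 0.0534, r = 0.834 without the 2 most distant cows) and JUNB with EGR1 (r = 0.787, rho = 0.809, permutation p = 0.0025 and 0.00404, adjusted 0.0337 and 0.0545, r = 0.847) passed with Pearson's r alone. ATF3 with NR4A1 had r = 0.837 (rho = 0.682, permutation p = 0.0013 and 0.0252, adjusted 0.0219 and 0.119), which dropped to 0.525 without cows 386 and 347 and so rested in part on them. FOSB with IER2 passed with rho alone (rho = 0.864, r = 0.388, permutation p = 0.00109 and 0.237, adjusted 0.0295 and 0.449, r = 0.541 without cows 347 and 330). IER3 had r from -0.16 to 0.35 with the other 9 genes. Within the postpartum arrays alone, FOS and EGR1 levels had r = 0.939 (rho = 0.936, permutation p = 2e-05 and 8e-05, adjusted 0.0027 and 0.0054, r = 0.879 without the 2 most distant cows). Within the prepartum arrays, EGR1 with ATF3 (r = 0.872, rho = 0.864, permutation p = 0.00012 and 0.00131, adjusted 0.0081 and 0.0295, r = 0.791) and ATF3 with NR4A1 (r = 0.874, rho = 0.927, permutation p = 0.00047 and 0.0002, adjusted 0.0106 and 0.009, r = 0.792) passed with both measures, as did ATF3 with MYC (r = 0.868, rho = 0.864, permutation p = 0.00041 and 0.00114, adjusted 0.0106 and 0.0295, r = 0.742). Prepartum 42 of 45 pairs and postpartum 36 of 45 were positive.

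**Figure D5:**
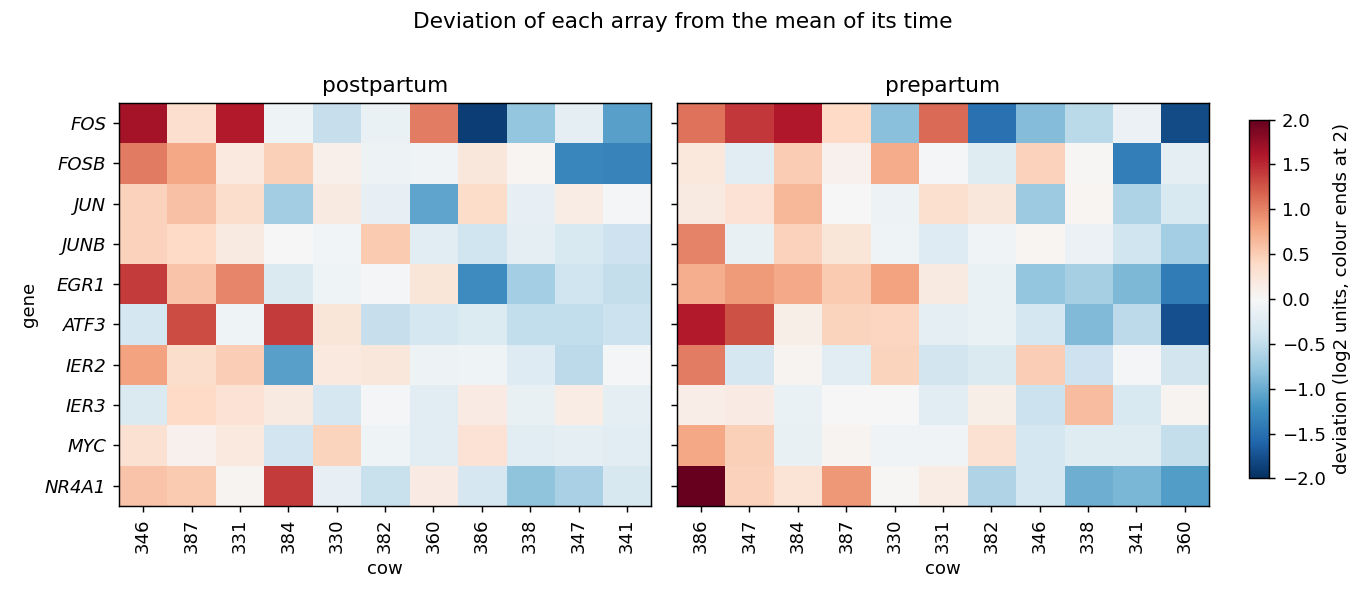
Deviation of each array from the mean of its time (log2 units) for the 10 genes, postpartum on the left and prepartum on the right, with cows ordered by the mean deviation of the 10 genes. Postpartum arrays of cows 346, 387 and 331 and prepartum arrays of cows 386, 347 and 384 are high in several genes, and prepartum cow 360 is low.

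The mean deviation of the 10 genes ran from -0.45 (cow 341) to 0.61 (cow 346) postpartum and from -0.80 (cow 360) to 0.89 (cow 386) prepartum. EGR1 followed the mean of the other 9 genes most closely over the 22 arrays (r = 0.85, a description, since 2 arrays come from each cow), then JUNB (0.80), NR4A1 (0.76), ATF3 (0.66), FOS (0.63) and MYC (0.62). IER3 followed it least (0.10). Among 6974 other genes, the 10 whose deviations were most like that mean were ZFP36 (r = 0.81), VEGFD, CCN1, LYSET, TCF20, DUSP1, CCT4, BYSL, ADAMTS1 and SNAI1 (0.69), where the median gene had r = 0.03. ZFP36, a factor that degrades short-lived messengers, DUSP1, a phosphatase that switches off MAP kinases, and CCN1, a secreted matrix protein, are themselves listed early response genes.

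The wider early response was described from lists. Of 17 kept early response genes beside the members, 1 rose and none fell: TRIB1, a pseudokinase, rose in 11 of 11 cows (log2 change 0.70, SE 0.12, limma adjusted p = 0.00567). That list had 12 positive changes and a median of 0.20, against 0.01 over all kept genes. Of 7 feedback inhibitors, 1 fell: ERRFI1, which restrains the epidermal growth factor receptor, fell in 11 of 11 cows (log2 change -0.68, SE 0.11, limma adjusted p = 0.00368). DUSP1 had -0.29 (limma adjusted p = 0.34) and ZFP36 0.00 (limma adjusted p = 1.0). None of 4 kept relatives of AP-1, EGR and NR4A passed, where ATF4 had 0.16 (limma adjusted p = 0.715) and NR4A2 -0.13 (limma adjusted p = 0.62). FOSL1, FOSL2, EGR2, EGR3, NR4A3 and BATF had no kept probe set.

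Lists that respond to tissue injury or delay were set beside FOS and EGR1. None of 10 heat shock genes passed, among them HMOX1, heme oxygenase (0.43, limma adjusted p = 0.258), and the inducible chaperone HSPA1A (0.21, limma adjusted p = 0.346), and the list median was 0.00. None of 7 hypoxia genes passed, although all 7 had a positive change (median 0.09). BNIP3, a mitophagy receptor, had 0.62 (limma adjusted p = 0.0674) and VEGFA, the vascular growth factor, 0.53 (limma adjusted p = 0.0774). The change of FOS and that of the heat shock list median had r = 0.00 over 11 cows (rho = -0.009, permutation p = 1.0 and 0.989, r = -0.096 without the 2 most distant cows). For the hypoxia list median r was also 0.00 (rho = -0.136, permutation p = 0.999 and 0.694, r = -0.044). Inflammatory cytokines had 2 kept genes of 10, CCL2, a monocyte attractant (-0.55, limma adjusted p = 0.295), and IL1B (0.61, limma adjusted p = 0.113), too few for a list median.

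FOS and EGR1 were each set against 18 measures over the 11 cows: list medians of pathways and cell types, KRT10, and the ratio of 3 prime to 5 prime signal of GAPDH and actin, a sign of RNA quality. The log2 actin ratio reached 3.76 (prepartum cow 382). It was lowest in prepartum cow 387 (-0.12) and postpartum cow 384 (-0.07), the arrays with the highest muscle markers. The part of tissue mix in these ratios was not tested. None of the 36 relations passed the adjustment (lowest adjusted p with Pearson's r 0.361). Over all 11 cows the highest r belonged to the other early response genes, 0.674 for FOS (rho = 0.636, permutation p = 0.02 and 0.0397, adjusted 0.361 and 0.268) and 0.69 for EGR1 (rho = 0.709, permutation p = 0.0161 and 0.018, adjusted 0.361 and 0.268), and dropped to 0.308 and 0.418 without cows 386 and 360. Without cows 384, 386 and 387 it was 0.391 and 0.469. The glucocorticoid target median had r = 0.31 with FOS and 0.426 with EGR1. Without cows 384 and 387 these were 0.66 and 0.781, and without cow 386 as well 0.807 and 0.926. DUSP1 and NFKBIA are in that list and in the feedback inhibitor list. For the adipocyte median r was -0.158 and -0.173, then -0.698 and -0.683, and last -0.592 and -0.575 after the same omissions. No p was computed after these omissions. Skeletal muscle markers had r = -0.339 with FOS (rho = -0.373, permutation p = 0.314 and 0.261, adjusted 0.815 and 0.589). That r was -0.578 without cows 387 and 384, but 0.088 without cows 384, 386 and 387. The GAPDH ratio had r = -0.092 (rho = -0.082, permutation p = 0.791 and 0.818, adjusted 0.925 and 0.951, r = 0.127 without cows 341 and 387) and the actin ratio r = 0.287 (rho = 0.382, permutation p = 0.393 and 0.249, adjusted 0.815 and 0.589, r = 0.417 without cows 387 and 338). EGR1 had r = 0.477 with the actin ratio (rho = 0.636, permutation p = 0.137 and 0.04, adjusted 0.55 and 0.268, r = 0.706 without cows 387 and 338, 0.567 without cows 384 and 387, and 0.586 in array set 2) and r = 0.058 with the GAPDH ratio (rho = 0.009, permutation p = 0.867 and 0.989, adjusted 0.975 and 0.99, r = -0.078 without cows 341 and 387). The part of RNA quality in the EGR1 changes was not tested. KRT10 had, with FOS, r = -0.105 (rho = -0.245, permutation p = 0.76 and 0.468, adjusted 0.925 and 0.703, r = -0.151 without cows 341 and 382). With 11 cows, relations of moderate size would not pass over 36 comparisons. Of the cell type lists, 2 of 9 adipocyte markers fell (LEP and GPD1), 2 of 7 endothelial markers rose (VWF and TEK), 1 of 7 fibroblast markers rose (PI16), and their part in the IER3 change was not tested. Handling itself was not tested, because no label records it for single biopsies.

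The effect of time on the members was also compared between the array sets. FOS had a mean change of 0.11 in set 2 and 0.29 in set 1, EGR1 -0.43 and 0.14, and IER3 -0.38 and -0.53. By limma's interaction test no member probe set passed (lowest adjusted p 0.997), 1 of 17 had an unadjusted p under 0.05, and 0% of 14410 probe sets were called (516 at an unadjusted p under 0.05).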

How the data were processed

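Each of 22 arrays held the total RNA of 1 adipose biopsy. Per the submitters' processing notes the authors summarised probe sets with MAS5, and the deposited values are linear signal intensities. Neither its version nor its settings are stated there. Arrays give no read depth, and their number limits the precision. MAS5 scaling sets each array against its own total, so a change in total messenger RNA would not be seen.

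Groups and cows came from the titles. Values were taken as log2(signal + 7.78), where the pseudocount is a typical 20th percentile of an array. Probe sets with a mean at or above the 40th percentile were kept (14410 of 24016, with 112 control probe sets left out). A gene was represented by its brightest kept probe set, and all member probe sets are reported. The test was limma (3.58.1, R 4.3.3), which fitted cow as a fixed block and let the variance follow intensity, at an adjusted p under 0.05. It was tested on simulated data. The cow number pairs the samples, since the series design describes paired sampling. Correlations used 100000 permutations, two-sided, with Benjamini-Hochberg adjustment within each family. Exact sign-flip tests used 2048 assignments and are two-sided. Symbols were updated through a RefSeq gene table of ARS-UCD2.0 for all but 27 of 13292 singly named probe sets.

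The members and lists were chosen with earlier results of these data known. Named genes were all members, list genes that passed or else the 2 with the largest change, and the 10 genes most like the members. KRT10 and 2 adipocyte markers are named as markers. Alternatives varied the block, pseudocount, filter, normalization, variance model, array weights, array set, threshold, a muscle covariate and left-out cows.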

Additional observations from a re-analysis of the deposited data

How the results depend on the processing

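IER3 was the 1 member called with no replicate block, with cow as a random effect (708 probe sets in all), under both pseudocounts, both filters, quantile normalization, no intensity trend, array weights, the muscle covariate, at an adjusted p under 0.10 and without cows 384 and 387, with or without cow 386. The paired and unpaired fits (494 probe sets with the block and 338 with no replicate block) thus called the same member. By an ordinary paired test 0 members and 291 probe sets passed. Array set 1 by itself gave 0 members and 69 probe sets, and array set 2 by itself gave 0 members and 0 probe sets. Leaving out cows 330, 331, 341 and 382 gave 0 members and 6 probe sets. Single-cow omissions gave 0 to 1 members and 242 to 969 probe sets. Other settings raised the count of probe sets: 1076 with array weights, 1070 without cows 384 and 387, 950 without cows 384, 386 and 387 (chosen after seeing the data), and 1048 at an adjusted p under 0.10. The subsets have fewer cows, and otherwise the cause was not tested. The count of members in the difference between array sets was 0 in each alternative run. The median remainder SD of the members was 0.47, against 0.41 without cows 384 and 387, 0.40 without cow 386 as well and 0.49 with a pseudocount of 1. Of 274 alternatives of single member changes, 239 kept direction and side of the threshold, 12 ended the IER3 call and 23 turned a sign. None of the 23 passed the test. In array set 1 they were JUNB 0.10, EGR1 0.14 and NR4A1 0.13, and in array set 2 IER2 -0.17. IER2 had -0.15 after omission of cows 330, 331, 341 and 382, JUNB 0.01 after omission of 384 and 387, and JUNB 0.187, EGR1 0.201 and NR4A1 0.178 after that of 384, 386 and 387. FOSB had 0.056 on its other probe set. Over single-cow omissions ATF3 ran from 0.142 to 0.468, FOS from -0.089 to 0.489, IER2 from -0.079 to 0.121, JUNB from -0.087 to 0.112, EGR1 from -0.389 to 0.026 and NR4A1 from -0.169 to 0.212. Signals near the floor limit FOSB, the dim EGR1 probe set and the dimmest IER2 probe set.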

Other observations

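The machinery above and beside the members was also measured. None of 8 kept upstream kinases and factors passed limma's test, where ATF2, a factor that pairs with JUN, had a log2 change of 0.23 (adjusted p = 0.548) and the kinase RPS6KA1 0.14 (adjusted p = 0.663). Of 7 kept MYC partners and targets, 1 rose: MXI1, which competes with MYC for MAX, rose in 10 of 11 cows (log2 change 0.35, SE 0.09, limma adjusted p = 0.0419). Of 4 kept glucocorticoid targets none passed, where NFKBIA, the inhibitor of NF-kappaB, had 0.29 with 10 of 11 cows higher (limma adjusted p = 0.0997).

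The changes of FOS and of the neutrophil marker median had r = 0.384 over 11 cows (rho = 0.209, permutation p = 0.241 and 0.54, adjusted 0.788 and 0.743, r = 0.145 without cows 346 and 387) and r = 0.875 in the 6 cows of array set 2, while array set 1 had too few cows for a value. The 4 kept neutrophil markers had a summed signal of 346 to 7397 postpartum and 401 to 2761 prepartum.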
